A study of Mus musculus with 6 samples.

Results

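The genes described here are 40 genes of cardiac fibroblasts and of the noncollagen extracellular matrix, picked by symbol out of the 26835 genes measured in mouse hearts. No symbol was repeated in the table. They were sorted into 13 genes linked to the activated, matrix-building fibroblast, 11 linked to the resting fibroblast, and 16 matrix genes with no state assigned. The sorting was made with earlier results of these data known. Hearts came from C57BL/6 mice of 7 to 8 weeks, with the genotype labelled "wide type", and messenger RNA was sequenced in 3 groups of 2 libraries each. Control mice received 10% DMSO into the peritoneum, and CFZ mice received carfilzomib, an irreversible proteasome inhibitor used against multiple myeloma, at 8 mg/kg by the same route. In CFZ_EA mice the same carfilzomib dose was combined with electroacupuncture, a current passed through needles at the acupoint PC6. Days 0, 2, 4 and 6 are listed for every library without being tied to an event, and nothing says whether the libraries of a group came from separate mice. The p-values therefore reflect the spread among these samples alone, and that spread may be technical.

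Fibroblasts make and maintain the matrix between heart muscle cells. At rest they express the receptor Pdgfra, the transcription factor Tcf21 and small matrix proteins such as decorin. After injury, with TGF-beta as a main signal, they proliferate and secrete collagens together with periostin, tenascin-C, thrombospondins and collagen cross-linking enzymes. Inhibitors of metalloproteinases then slow the breakdown of what was laid down. The lists compare these states only through RNA of heart tissue, in which fewer cells of a type and less RNA per cell cannot be told apart.

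One library stood apart before any comparison was made. On a principal component analysis of the 10329 genes tested, the leading axis carried 37.2% of the variance and placed control replicate 2 at 48.0 and the other 5 libraries between -22.1 and 0.37. Library totals ran from 50013990 to 75742448 estimated counts. Fibroblast markers were detected in every library: Pdgfra measured 1.41 to 3.78 FPKM (fragments scaled to transcript length and library size), Tcf21 3.15 to 5.34 FPKM and Dcn 33.2 to 63.8 FPKM. Of the 40 genes, 39 reached the mean of 1 FPKM needed for testing, and Vcan did not. Postn, Tnc, Lox and Cthrc1 reached it only through control replicate 2.

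The activated genes were far higher in control replicate 2 than in any other library, and the resting genes were much closer to one another. All 13 activated genes were highest in that library, as were 10 of 11 resting genes and 15 of 16 genes with no state, against 40.7% of all genes tested. At least a 2-fold excess over control replicate 1 was measured for 12 of 13 activated genes, 3 of 11 resting genes (Lum, Dpt and Mfap4) and 13 of 16 others, against 6.55% of all genes tested. At least 4-fold was reached by 8 activated genes, by the resting gene Mfap4 and by Mmp14, against 1.22% of all genes tested. Postn, Tnc, Lox and Cthrc1 are in all 3 activated counts but were tested only through control replicate 2, so their excess there is a description. Vcan was not tested. Of the 8 activated genes that pass the filter without that library, 8 were highest in it and 7 had at least a 2-fold excess. Relative to control replicate 1, the median log2 CPM (counts scaled to the library total) of the 12 tested activated genes was 2.64 higher in control replicate 2 and that of the resting genes 0.48 higher. Over the 8 activated genes that reach a mean of 1 FPKM without that library, the value was 2.01. In the remaining libraries the same 2 medians lay close together: -0.47 and -0.49 in CFZ replicate 1, -0.82 and -0.69 in CFZ replicate 2, -0.15 and -0.18 in CFZ_EA replicate 1, and -0.11 and 0.05 in CFZ_EA replicate 2. These 2 control libraries therefore give different pictures of the activated genes, and each comparison with control is given with both and with control replicate 1 alone.

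**Figure D1:**
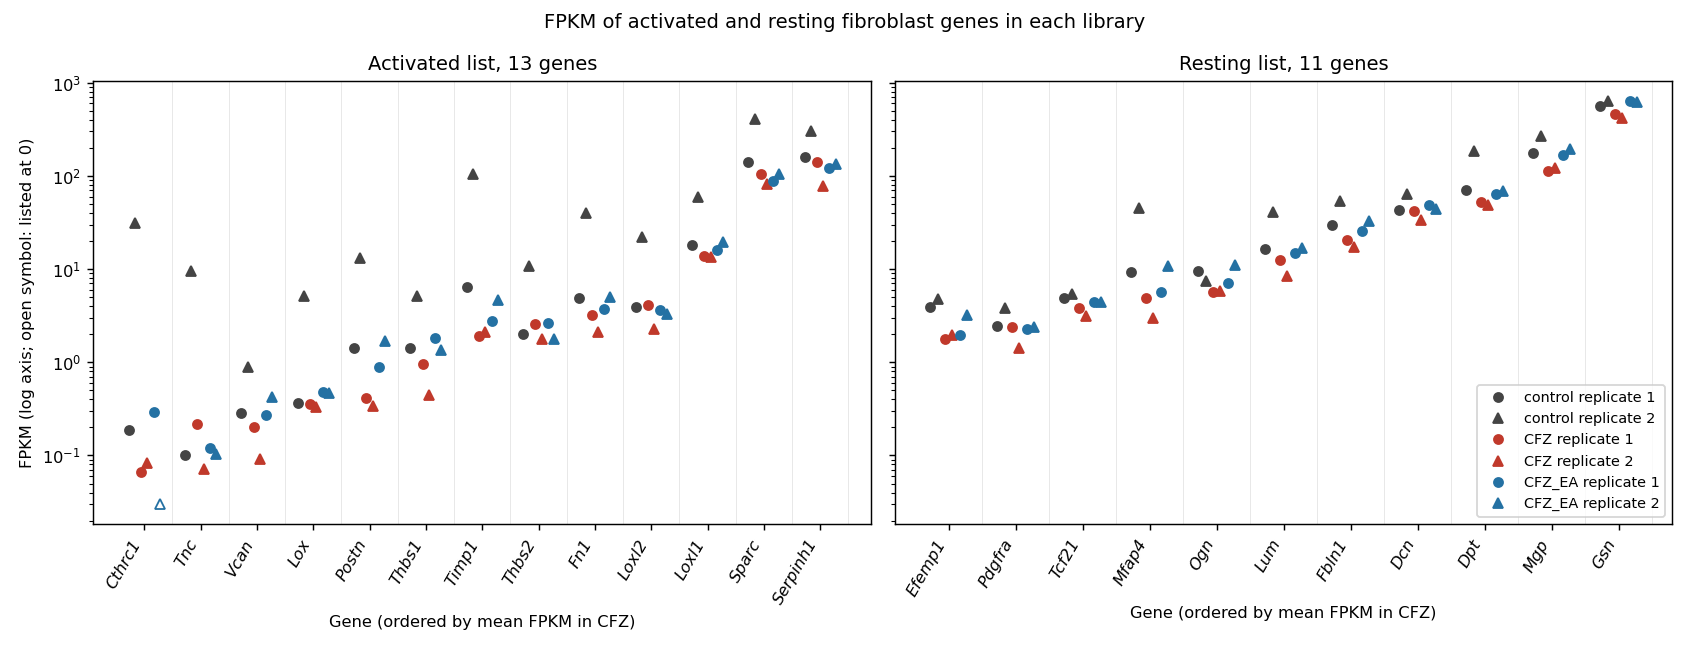
FPKM of the 13 activated (left) and 11 resting (right) fibroblast genes on a log axis, 1 symbol per library, circles for replicate 1 and triangles for replicate 2; an open symbol at the foot marks a value listed at 0. The dark triangle of control replicate 2 lies above all other symbols for each activated gene, up to 31.3 FPKM for Cthrc1 against 0.188 in control replicate 1, while Tcf21 and Gsn differ little between the control libraries.

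Other lists were also high in control replicate 2. All 10 macrophage markers were at least 2-fold above control replicate 1, and their summed level was 316 and 923 FPKM in control, 239 and 274 in CFZ, and 241 and 283 in CFZ_EA. Summed proliferation markers measured 1.63 and 6.86 FPKM in control, 0.719 and 0.820 in CFZ, and 0.473 and 0.960 in CFZ_EA, with 7 of 7 at least 2-fold higher in control replicate 2. Epicardial and mesothelial markers summed to 26.6 and 73.3 FPKM in control, 7.92 and 5.83 in CFZ, and 6.79 and 16.6 in CFZ_EA, and 8 of 11 were at least 2-fold higher in control replicate 2. No marker of these 3 lists was at 0 in any library. Endothelial markers, at 249 to 329 FPKM in sum over the 6 libraries, and smooth muscle and pericyte markers, at 688 to 752 FPKM, stayed within narrow ranges. The part of macrophage, proliferating or epicardial cells in the levels of the 40 genes was not tested.

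**Figure D2:**
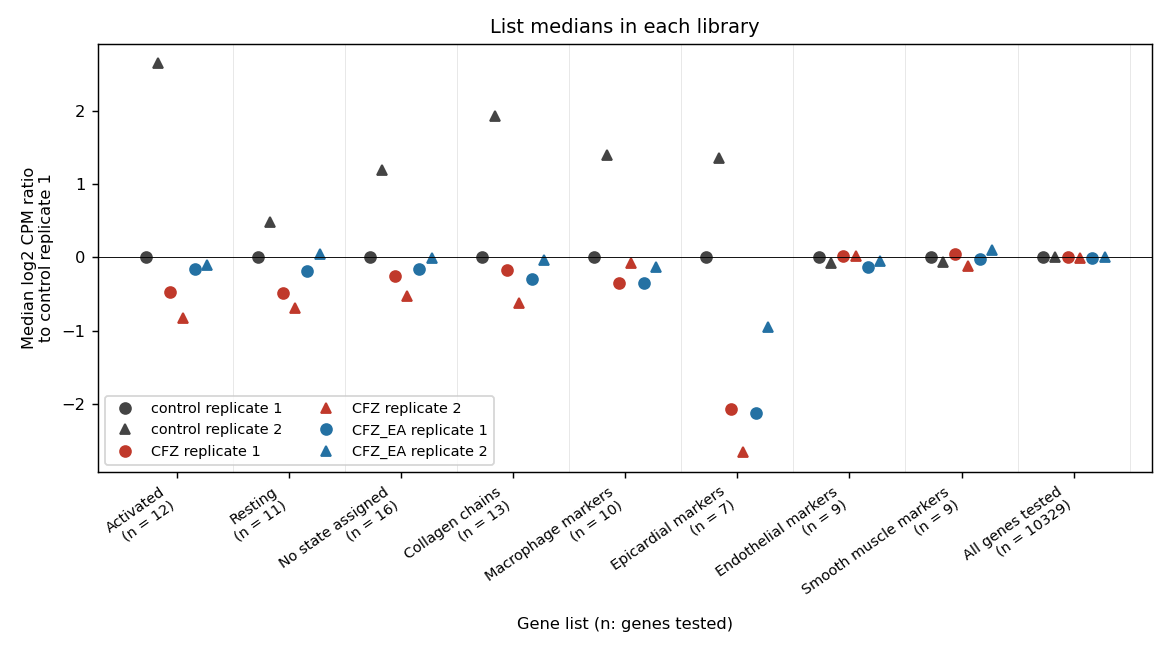
Median log2 CPM ratio to control replicate 1 (vertical axis) of gene lists (horizontal axis, with the number of genes tested), 1 symbol per library. Activated genes, collagen chains, macrophage and epicardial markers are raised in control replicate 2, by 2.64, 1.93, 1.40 and 1.36, while the median over all genes tested stays near 0.

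Promoters are shown for 4 of the genes with large differences between CFZ and control, an activated pair (Postn and Timp1) and a resting pair (Dpt and Efemp1), so that their upstream sequences can be read side by side. Each is the 250 bases before the transcript start in RefSeq on GRCm38, 5′ to 3′ on the gene's strand, and capitals mark matches to the motifs named after them. The positions are chr3:54360857-54361106 on the plus strand for Postn, chrX:20869916-20870165 plus for Timp1, chr1:164796413-164796662 plus for Dpt and chr11:28852955-28853204 plus for Efemp1.
Postn: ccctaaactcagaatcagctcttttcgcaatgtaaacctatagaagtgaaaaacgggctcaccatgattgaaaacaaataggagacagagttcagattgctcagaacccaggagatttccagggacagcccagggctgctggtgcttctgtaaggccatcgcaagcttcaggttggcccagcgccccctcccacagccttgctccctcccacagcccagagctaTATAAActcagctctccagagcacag
Timp1: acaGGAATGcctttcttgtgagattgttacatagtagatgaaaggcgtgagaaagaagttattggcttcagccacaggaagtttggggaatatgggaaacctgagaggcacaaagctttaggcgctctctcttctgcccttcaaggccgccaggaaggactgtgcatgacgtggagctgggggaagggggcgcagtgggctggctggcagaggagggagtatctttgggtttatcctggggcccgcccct
Dpt: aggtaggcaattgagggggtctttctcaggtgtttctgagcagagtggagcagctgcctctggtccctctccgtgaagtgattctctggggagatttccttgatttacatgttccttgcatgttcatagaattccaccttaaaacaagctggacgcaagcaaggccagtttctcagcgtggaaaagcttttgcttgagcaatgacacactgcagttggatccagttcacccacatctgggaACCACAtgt
Efemp1: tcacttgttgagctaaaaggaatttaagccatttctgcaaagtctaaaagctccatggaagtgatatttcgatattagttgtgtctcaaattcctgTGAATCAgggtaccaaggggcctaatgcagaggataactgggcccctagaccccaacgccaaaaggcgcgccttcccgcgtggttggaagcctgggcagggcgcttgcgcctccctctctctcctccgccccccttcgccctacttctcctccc

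The matches in these windows were to 4 different motifs. Postn carried the TATA box (TATAAA) 26 to 21 bases before the start, Timp1 the TEAD motif (GGAATG), Dpt the RUNX motif (TGTGGT, here on the other strand) and Efemp1 the AP-1 motif (TGANTCA). The motifs were searched on both strands, and the SMAD motif (CAGACA) and the CArG box of serum response factor were absent from all 4 windows. Of the 40 genes, 27 had a window in the RefSeq table. Among these the TATA box was present in 6, SMAD in 6, RUNX in 3, AP-1 in 2, TEAD in 2 and the CArG box in 0. Over 32851 promoters of the same length the shares were 12.4% for the TATA box, 17.1% for SMAD, 14.0% for RUNX, 6.75% for AP-1, 12.6% for TEAD and 1.47% for the CArG box. The window of Tnc, which holds a SMAD and a TATA box match, is not shown because its start lies 26211 bases from the gene's start in the deposited table. A match describes these letters only.

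Matricellular and adhesion proteins, which sit in the matrix and signal to cells, held the largest excess of control replicate 2. Postn, which encodes periostin, a secreted hallmark of activated fibroblasts (chromosome 3, 54361109 to 54391037, GRCm38), measured 1.43 and 13.2 FPKM in control, 0.413 and 0.343 in CFZ, and 0.899 and 1.70 in CFZ_EA. Both CFZ libraries lay below the other 4, and CFZ_EA replicate 2 was above control replicate 1. Tnc, coding for tenascin-C, an adhesion-modulating protein of healing tissue (chromosome 4, 63959785 to 64020725), measured 0.102 and 9.47 FPKM in control, 0.216 and 0.0717 in CFZ, and 0.121 and 0.104 in CFZ_EA. Outside control replicate 2 no Tnc value exceeded 0.216 FPKM. Cthrc1, a secreted protein of collagen-producing fibroblasts (chromosome 15, 39076932 to 39087121), measured 0.188 and 31.3 FPKM in control, 0.0664 and 0.0829 in CFZ, and 0.294 and 0 in CFZ_EA, from 19, 2739, 8, 10, 35 and 0 counts. The ratio of control replicate 2 to replicate 1 was 166 for Cthrc1, 93.1 for Tnc and 9.25 for Postn.

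The remaining matricellular genes followed the same shape at smaller ratios. Fn1, coding for fibronectin, the adhesive scaffold on which other fibres assemble, measured 4.86 and 40.2 FPKM in control, 3.19 and 2.10 in CFZ, and 3.68 and 5.00 in CFZ_EA. Thbs1, coding for thrombospondin 1, an activator of latent TGF-beta, measured 1.42 and 5.10 FPKM in control, 0.956 and 0.441 in CFZ, and 1.82 and 1.34 in CFZ_EA. For both genes the 2 CFZ libraries were the lowest of the 6. Thbs2, its relative thrombospondin 2, measured 2.00 and 10.9 FPKM in control, 2.54 and 1.76 in CFZ, and 2.61 and 1.78 in CFZ_EA. With control replicate 2 aside, Thbs2 did not separate the groups. Sparc, a collagen-binding matricellular protein and the most abundant gene of this class, measured 140.0 and 408 FPKM in control, 105 and 82.1 in CFZ, and 88.9 and 105 in CFZ_EA. Vcan, the large proteoglycan versican, measured 0.286 and 0.899 FPKM in control, 0.204 and 0.0916 in CFZ, and 0.269 and 0.426 in CFZ_EA, and was too low to be tested. Both treated groups lay below both controls for Sparc, while for Vcan CFZ_EA replicate 2 exceeded control replicate 1.

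Genes that fold, trim and cross-link collagen differed in abundance and in the size of their excess in control replicate 2. Lox, coding for lysyl oxidase, which starts collagen and elastin cross-links, measured 0.361 and 5.11 FPKM in control, 0.352 and 0.330 in CFZ, and 0.477 and 0.468 in CFZ_EA. Loxl2, a related oxidase, measured 3.89 and 22.1 FPKM in control, 4.12 and 2.29 in CFZ, and 3.62 and 3.26 in CFZ_EA. With control replicate 2 aside, Lox was highest in both CFZ_EA libraries, while for Loxl2 both CFZ_EA libraries lay below control replicate 1 and between the CFZ libraries. Loxl1, the oxidase of elastic fibres, measured 18.2 and 59.3 FPKM in control, 13.7 and 13.5 in CFZ, and 16.1 and 19.7 in CFZ_EA. Serpinh1, coding for the collagen chaperone HSP47 of the endoplasmic reticulum, measured 159 and 302 FPKM in control, 139.5 and 78.7 in CFZ, and 122 and 133 in CFZ_EA. Its 2 CFZ libraries differed more from each other than CFZ replicate 1 did from control replicate 1. Pcolce, an enhancer of procollagen trimming, ran from 12.0 FPKM in CFZ replicate 2 to 38.5 FPKM in control replicate 2, and from 12.0 to 16.4 FPKM outside that library.

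Among metalloproteinases and their inhibitors, Timp1 and Timp3 marked the ends of the range. Timp1, an inhibitor that is induced in injured tissue (chromosome X, 20870166 to 20874735), measured 6.49 and 105 FPKM in control, 1.91 and 2.10 in CFZ, and 2.78 and 4.60 in CFZ_EA. All 4 carfilzomib libraries lay below both controls, and both CFZ libraries below both CFZ_EA libraries. Timp3, the inhibitor that binds to the matrix, measured 11.8 and 10.2 FPKM in control, 11.1 and 10.4 in CFZ, and 12.3 and 13.5 in CFZ_EA. It was 1 of 2 genes of the 40 that were not highest in control replicate 2. Timp2, an inhibitor that also takes part in activating Mmp2, measured 28.0 and 61.9 FPKM in control, 23.7 and 20.4 in CFZ, and 26.5 and 26.8 in CFZ_EA. Mmp3, the protease stromelysin 1, measured 2.65 and 8.45 FPKM in control, 1.41 and 1.61 in CFZ, and 2.42 and 2.52 in CFZ_EA. The gelatinase Mmp2 and the membrane-bound Mmp14 showed the excess in control replicate 2, at 59.0 and 10.2 FPKM, with 17.2 to 25.0 and 1.66 to 2.52 FPKM elsewhere. The gene models of Timp1 and Timp3 lie inside Syn1 and Syn3 on the opposite strand, and those of Ogn and Aspn inside Cenpp. Since it is not given in the sources used here whether counting used strand, reads of such pairs may not be separable.

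Elastic fibre and microfibril genes included the resting gene with the widest range. Mfap4, a microfibril-associated protein (chromosome 11, 61485431 to 61488900), measured 9.20 and 45.3 FPKM in control, 4.89 and 3.00 in CFZ, and 5.64 and 10.8 in CFZ_EA. Fbln1, the matrix protein fibulin 1, measured 29.6 and 53.1 FPKM in control, 20.6 and 17.1 in CFZ, and 25.6 and 32.9 in CFZ_EA. For both genes the CFZ libraries were the lowest, and CFZ_EA replicate 2 passed control replicate 1. Efemp1, the matrix protein fibulin 3, measured 3.91 and 4.79 FPKM in control, 1.80 and 1.97 in CFZ, and 1.95 and 3.19 in CFZ_EA. All 4 carfilzomib libraries lay below both controls, and CFZ_EA replicate 1 lay between the CFZ libraries. Eln, coding for elastin, measured 11.0 and 38.2 FPKM in control, 7.41 and 5.95 in CFZ, and 7.68 and 13.5 in CFZ_EA. Fbln5, which links elastic fibres to cells, departed from the class at 2.49 and 6.58 FPKM in control, 4.31 and 2.07 in CFZ, and 4.17 and 5.06 in CFZ_EA. Outside control replicate 2, where they were also highest, Fbn1 ran from 3.55 to 5.94 FPKM, Fbln2 from 12.7 to 14.4, Mfap5 from 3.93 to 7.50, Efemp2 from 2.31 to 3.31 and Emilin1 from 6.29 to 7.97.

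Small leucine-rich proteoglycans and other small matrix proteins, most of them products of resting fibroblasts, varied less than the matricellular genes. Dcn, coding for decorin, which regulates the width of collagen fibrils (chromosome 10, 97479609 to 97518143), measured 43.4 and 63.8 FPKM in control, 41.5 and 33.2 in CFZ, and 49.2 and 44.0 in CFZ_EA. Lum, coding for lumican of the same family, measured 16.5 and 41.2 FPKM in control, 12.5 and 8.48 in CFZ, and 14.7 and 16.9 in CFZ_EA. Dcn and Lum were each lowest in CFZ, without overlap. Dpt, coding for dermatopontin, a small protein that promotes fibril assembly, measured 71.4 and 183 FPKM in control, 52.9 and 48.4 in CFZ, and 63.7 and 69.6 in CFZ_EA. Mgp, the mineralization inhibitor matrix Gla protein, measured 176 and 269 FPKM in control, 112 and 122 in CFZ, and 166 and 195 in CFZ_EA. The CFZ libraries were again lowest for Dpt and Mgp. Ogn, coding for osteoglycin, measured 9.57 and 7.42 FPKM in control, 5.65 and 5.77 in CFZ, and 7.11 and 11.1 in CFZ_EA, so that control replicate 1 exceeded replicate 2. Aspn, coding for asporin, which binds TGF-beta, measured 2.44 and 4.27 FPKM in control, 0.797 and 1.20 in CFZ, and 1.17 and 1.98 in CFZ_EA. Prelp measured 13.4 to 25.8 FPKM over the 6 libraries and Bgn, coding for biglycan, 32.9 to 129.8 FPKM.

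The identity genes Tcf21 and Gsn differed little between the control libraries, and Pdgfra differed more. Pdgfra, the PDGF receptor used to recognise fibroblasts (chromosome 5, 75152292 to 75198215), measured 2.48 and 3.78 FPKM in control, 2.40 and 1.41 in CFZ, and 2.28 and 2.40 in CFZ_EA. Apart from control replicate 2 and CFZ replicate 2 its values lay between 2.28 and 2.48 FPKM. Tcf21, the transcription factor of the fibroblast lineage, measured 4.89 and 5.34 FPKM in control, 3.79 and 3.15 in CFZ, and 4.39 and 4.40 in CFZ_EA. Gsn, coding for the actin-severing protein gelsolin, measured 567 and 632 FPKM in control, 463 and 413 in CFZ, and 628 and 618 in CFZ_EA. For Tcf21 and Gsn the ratio of the control libraries was 1.09 and 1.11, and both CFZ libraries lay below all 4 others. The gene model of Tcf21 lies inside an antisense model, Gm10824.

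CFZ against control asks what carfilzomib does to these genes. Nearly all were lower in both CFZ libraries, in resting and activated genes alike, and none passed the adjusted threshold of edgeR. Both CFZ libraries lay below both control libraries for 35 of 40 genes, against 20.8% of all genes tested: 10 of 13 activated, 11 of 11 resting and 14 of 16 others. The exceptions were Tnc, Loxl2, Thbs2, Timp3 and Fbln5. Against control replicate 1 alone, both CFZ libraries were lower for 36 of 40, against 29.2% of all genes tested, with the same 10 activated and 11 resting counts. Those shares cover only genes that passed the filter. Over the 35 genes that reach a mean of 1 FPKM without control replicate 2, the counts were 31 below both controls and 32 below control replicate 1. Of the 8 activated genes among them, 6 met each order. The reverse order, both CFZ libraries above both controls, was found for 0 of 40, against 12.5% of all genes tested.

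The sizes, unlike the counts, depended on control replicate 2. With all libraries, 38 of the 39 tested genes had a negative log2 fold change, against 50.5% of all genes tested, and their median was -1.35. The activated median was -2.51 and the resting median -0.86, a difference of -1.66. Over the 8 activated genes that reach a mean of 1 FPKM without control replicate 2, the median was -1.71. Without control replicate 2, 36 of 39 were negative, against 48.9% of all genes tested, with a median of -0.51. The activated and resting medians were then -0.58 and -0.60, so that their difference was 0.016. The median over all genes tested was near 0 in both fits. Fitting all 40 genes without the filter on low values gave 39 of 40 negative, against 51.9% of all 26835 genes fitted in that way, and 37 of 40 without control replicate 2, against 45.4% of 25913.

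Single genes differed in size. Cthrc1 had a log2 fold change of -7.47 ± 2.49 (SE), Tnc of -4.94 ± 1.78, Timp1 of -4.68 ± 1.21 and Postn of -4.15 ± 0.99. Cthrc1, Tnc and Postn were tested only through control replicate 2, where they were highest, so their values with that library are a description. Among resting genes the values were -2.70 ± 0.74 for Mfap4, -1.39 ± 0.39 for Lum, -1.25 ± 0.37 for Dpt and -1.15 ± 0.29 for Efemp1. Dcn had -0.46 ± 0.18 and Pdgfra -0.66 ± 0.27. The adjusted p of these 10 genes lay between 0.608 and 0.640 (edgeR, quasi-likelihood, adjusted after Benjamini and Hochberg). Without control replicate 2, control is 1 library with no spread of its own, so values from that fit are given without SE. Postn then had -1.92, Timp1 -1.70, Cthrc1 -1.24 and Mfap4 -1.25, and Tnc turned to 0.46. Efemp1, at -1.07, lost little, while Lum and Dpt were reduced to -0.68 and -0.51. Tcf21 and Gsn, whose control libraries were alike, had -0.50 ± 0.15 and -0.40 ± 0.13 with control replicate 2 and -0.51 and -0.39 without it.

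**Figure D3:**
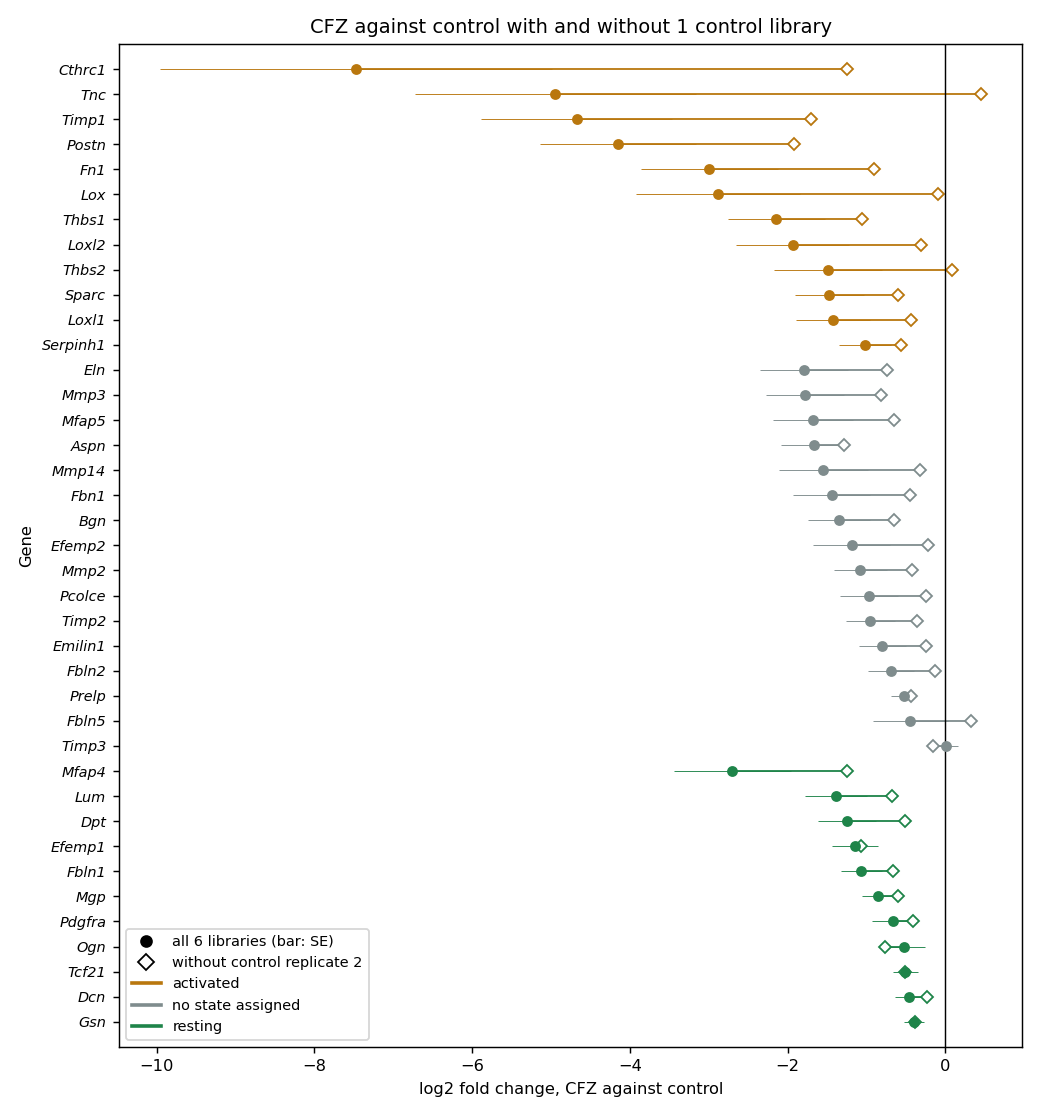
Log2 fold change of CFZ against control (horizontal axis) for each tested gene (vertical axis), filled circles with SE bars for all 6 libraries and open diamonds for the fit without control replicate 2, coloured by state. The activated median moves from -2.51 to -0.58 and the resting median from -0.86 to -0.60. Tnc, tested only through control replicate 2, moves from -4.94 to 0.46, while Efemp1, Tcf21 and Gsn hardly move.

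By edgeR, 0 of the 39 tested genes passed the adjusted threshold of 0.05, against 0.0290% of all genes tested called lower. At an unadjusted p under 0.05, 33 were lower, against 5.90% of all genes tested, and 19 without control replicate 2, against 3.17%. The Wald test of DESeq2 called 12 of the genes lower, Postn, Timp1 and Lum among them, against 1.07% of all genes tested. It called 1, Postn, on leaving out control replicate 2, against 0.532%. Without control replicate 1 instead, so that control replicate 2 alone stood for the group and was assumed to vary as the other groups do, edgeR called 28 lower, against 2.98% of all genes tested. The number of genes called thus turned on which control library was kept. Postn, Tnc, Lox and Cthrc1 were tested only through control replicate 2, where they were highest, so their calls are a description. All 4 are among the 33 lower at an unadjusted p, and Postn is among the 12 called by DESeq2. All 4 are also in the count without control replicate 1, and Postn is in both counts without control replicate 2. Epicardial and atrial markers were also lower in CFZ: the medians of 7 and 9 tested markers were -3.10 and -3.50, and -2.31 and -3.89 without control replicate 2. Summed atrial markers measured 2867 and 1627 FPKM in control, 346 and 213 in CFZ, and 979 and 5741 in CFZ_EA, and Dhrs9 was at 0 in CFZ_EA replicate 1. Their part in the lower level of the fibroblast genes was not tested.

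CFZ_EA against CFZ asks what electroacupuncture adds in treated mice. It shares both CFZ libraries with CFZ against control, where they enter with the opposite sign. Lower counts there and higher counts here are therefore not independent observations. Most of the genes were higher in CFZ_EA, and none passed the adjusted threshold of edgeR. Both CFZ_EA libraries lay above both CFZ libraries for 26 of 40 genes, against 15.1% of all genes tested: 7 of 13 activated, 9 of 11 resting and 10 of 16 others. The resting exceptions were Pdgfra and Efemp1. For 0 of 40 both lay below, against 17.7% of all genes tested. A positive log2 fold change was found for 38 of 39 tested genes, against 48.1% of all genes tested, the exception being Tnc. The median was 0.46, with 0.44 for activated and 0.52 for resting genes. By limma with a pseudocount of 1, which understates low genes, the last 2 were 0.20 and 0.51. Over the 8 activated genes that reach a mean of 1 FPKM without control replicate 2 the median was 0.33. The order of the activated and resting medians was not stable. They were 0.63 and 0.55 without CFZ replicate 1, and 0.41 and 0.73 without CFZ_EA replicate 1. No control library enters this contrast, and leaving out control replicate 2 kept the median at 0.46.

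The largest values among activated genes were 1.78 ± 0.91 (SE) for Postn, 1.20 ± 0.60 for Thbs1, 0.90 ± 1.09 for Timp1 and 0.87 ± 2.61 for Cthrc1. Cthrc1 rested on at most 35 counts per library here and had 0 counts in CFZ_EA replicate 2. Among resting genes they were 1.08 ± 0.70 for Mfap4, 0.69 ± 0.28 for Ogn, 0.65 ± 0.26 for Fbln1 and 0.63 ± 0.20 for Mgp. Dcn had 0.33 ± 0.18 and Pdgfra 0.32 ± 0.27. None of the 39 tested genes had an adjusted p below 0.9997 (edgeR, quasi-likelihood, adjusted after Benjamini and Hochberg), so that 0 were called, against 0.0194% of all genes tested called higher. At an unadjusted p under 0.05, 5 were higher, against 2.01% of all genes tested: Fbln1, Gsn, Mgp, Ogn and Prelp, named here because they make up that count. Gsn had 0.52 ± 0.13 and Prelp 0.54 ± 0.16. Without control replicate 2, which then no longer widened the spread that all groups share, 19 were higher at that level, against 3.32%. DESeq2 called Gsn higher, against 0.368% of all genes tested, and without control replicate 2 Gsn, Mgp and Postn, against 0.600%.

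The CFZ_EA libraries did not contribute equally. CFZ_EA replicate 2 was above replicate 1 for 29 of 40 genes, against 44.2% of all genes tested, for 11 of 11 epicardial markers and for 10 of 10 atrial markers. CFZ_EA replicate 1 alone lay above both CFZ libraries for 28 of 40 genes, against 28.9% of all genes tested. Without CFZ_EA replicate 2, 36 of 39 log2 fold changes were positive, against 49.9% of all genes tested, and the median was 0.30, with 0.37 for activated and 0.40 for resting genes. Postn then had 1.23, Mfap4 0.52, Ogn 0.31 and Efemp1 0.04, and Gsn was the same at 0.52, all without SE since CFZ_EA was then 1 library. The median of the epicardial markers went from 1.19 to 0.16 and that of the atrial markers from 3.97 to 1.62 on leaving out the same library. The part of these cells in the higher level of the fibroblast genes was not tested.

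**Figure D4:**
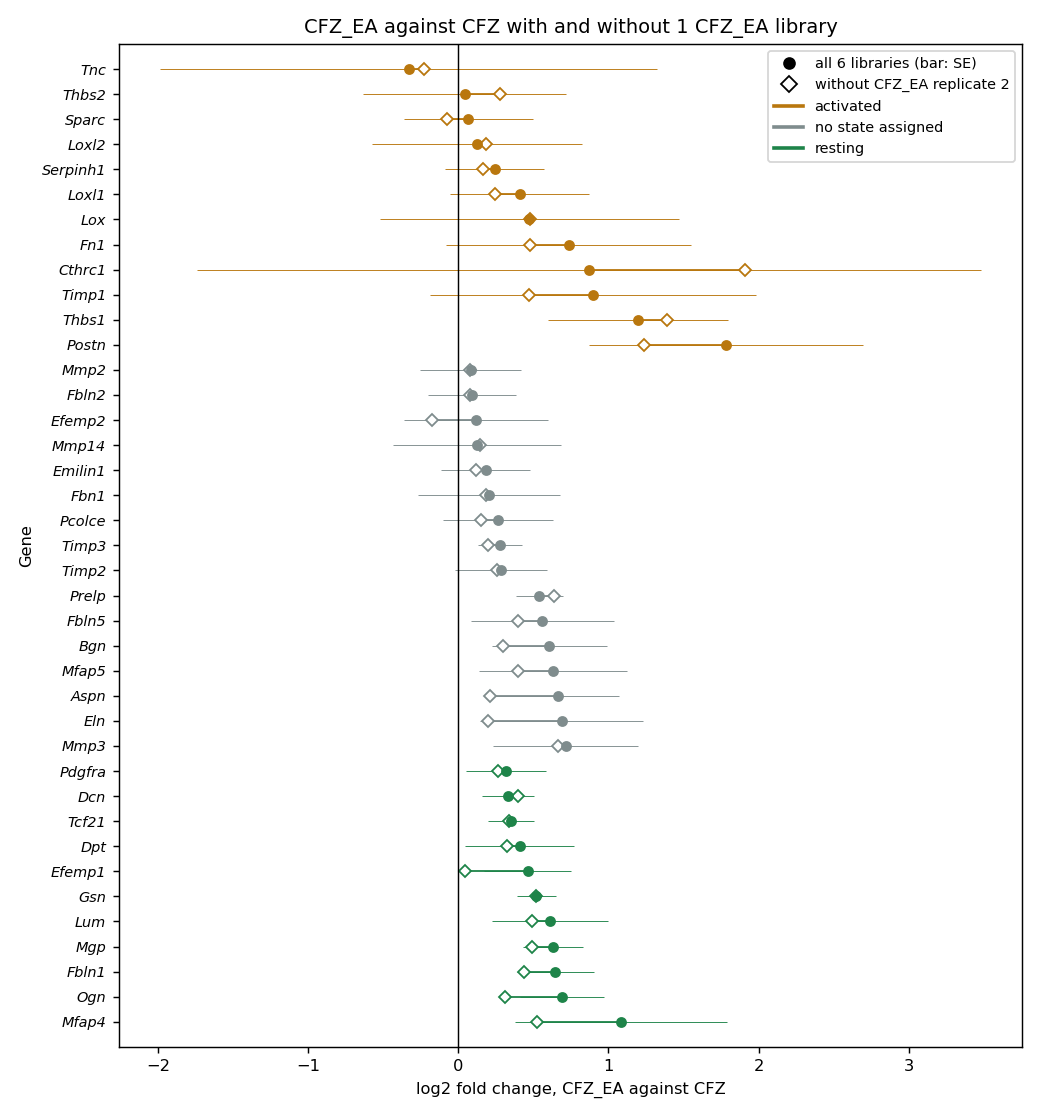
Log2 fold change of CFZ_EA against CFZ (horizontal axis) for each tested gene (vertical axis), filled circles with SE bars for all 6 libraries and open diamonds for the fit without CFZ_EA replicate 2, coloured by state. Most points lie right of 0 in both fits; Mfap4 goes from 1.08 to 0.52 and Efemp1 from 0.46 to 0.04.

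CFZ_EA against control asks how far the doubly treated hearts stood from those of control mice, which received DMSO. This comparison shares its libraries with both others, so its values are given beside theirs and are not independent of them. Both CFZ_EA libraries lay below both controls for 16 of 40 genes, against 22.1% of all genes tested. Against control replicate 1 alone they were lower for 16 of 40, against 30.7% of all genes tested, and higher for 6, against 31.6%: Tnc, Lox, Dcn, Gsn, Timp3 and Fbln5. The median log2 fold change was -0.94 over 39 tested genes, with -2.03 for activated and -0.34 for resting genes, and -1.42 over the 8 activated genes named above. With control replicate 1 alone it was -0.067, with -0.15 for activated and -0.067 for resting genes, and 28 of 39 values were negative, against 49.4% of all genes tested. With both controls 34 of 39 were negative, against 50.3%.

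Here Cthrc1 had -6.60 ± 2.33 (SE), Tnc -5.28 ± 1.81, Timp1 -3.78 ± 1.15 and Lox -2.41 ± 1.02. Postn had -2.37 ± 0.91. Of these, Cthrc1, Tnc, Lox and Postn were tested only through control replicate 2, where they were highest, so their values with that library are a description. For resting genes the values were -1.62 ± 0.71 for Mfap4, -0.84 ± 0.37 for Dpt, -0.78 ± 0.38 for Lum and -0.68 ± 0.29 for Efemp1, with -0.13 ± 0.17 for Dcn and -0.34 ± 0.26 for Pdgfra. The adjusted p of these 11 genes ran from 0.848 to 0.920 (edgeR, quasi-likelihood, adjusted after Benjamini and Hochberg). With control replicate 1 alone, again without SE, Timp1 had -0.81, Efemp1 -0.60, Cthrc1 -0.36, Postn -0.14 and Mfap4 -0.16. Tnc, Lox and Dcn turned positive, at 0.13, 0.38 and 0.10. At an unadjusted p under 0.05, 11 of 39 were lower, against 3.66% of all genes tested. That was 1, Sparc, on leaving out control replicate 2, against 1.41%. DESeq2 called 0 lower, against 0.242%, and edgeR 0 lower, against 0 of all genes tested. Of the 11, Postn, Tnc and Cthrc1 were tested only through control replicate 2, so their part in that count is a description. The same holds for them and Lox in the count that follows. Without control replicate 1, edgeR called 21 lower, against 2.04% of all genes tested.

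Related genes outside the 40 depended on control replicate 2 to differing degrees. Beside their counts, 50.5% of all genes tested had a negative log2 fold change for CFZ against control, and 48.9% without control replicate 2. All 13 tested collagen chains had a negative log2 fold change for CFZ against control, with a median of -1.92, and of -0.36 without that library. Col1a1, the main fibrillar chain, went from -3.46 to -0.73. Of 17 tested genes of the TGF-beta pathway 14 were negative, with a median of -0.27, and without control replicate 2 there were 11, with -0.071. Of 8 tested further activated genes 7 were negative, with a median of -0.86, and of -0.49 without control replicate 2. Comp, a cartilage matrix protein that activated fibroblasts also make, did not follow the collagens. It had -2.33 ± 0.35 for CFZ against control, -2.04 without control replicate 2, and 2.15 ± 0.35 for CFZ_EA against CFZ, with adjusted p = 0.518 and 0.560 (edgeR, quasi-likelihood, adjusted after Benjamini and Hochberg). Tendon and cartilage markers, summed over 7 genes, measured 10.9 and 8.45 FPKM in control, 5.22 and 3.62 in CFZ, and 11.9 and 7.83 in CFZ_EA, with 4 of them, Chad, Tnmd, Acan and Col2a1, at 0 in CFZ replicate 2. Col2a1 was also at 0 in control replicate 2 and both CFZ_EA libraries, and Tnmd in CFZ_EA replicate 2. Their part in the Comp values was not tested. Of 12 further resting genes, 11 were negative for CFZ against control, with a median of -0.47, and 10 without control replicate 2, with -0.18. The further activated median thus stayed below the further resting one without that library. Among the 40 genes the activated and resting medians were then -0.58 and -0.60. No gene of these 4 related lists passed the adjusted threshold in any of the 3 comparisons.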

How the data were processed

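Heart RNA of 6 mouse libraries was analysed, 2 per group as labelled. Per the labels' protocols, RNA was selected on oligo(dT) and a strand-marking dUTP kit was used; per the submitters' processing notes, cutadapt 1.9, HISAT2 2.0.4, StringTie 1.3.4d and GRCm38 were involved, with no role or order given. Per the file headers, the authors deposited FPKM values and a count per gene and library. These deposited counts were taken as estimated counts and rounded; multiples of 4 made up 42.2% to 43.3% of the counts from 1 to 20, so 1 count may be less than 1 read. Totals were 50013990 to 75742448. Estimated counts of genes averaging 1 FPKM or more (10329 of 26835) were TMM-scaled and fitted in edgeR 4.0.16 (R 4.3.3) with group as the only term, over all 6 libraries with 3 residual degrees of freedom. Genes were called at p under 0.05 after Benjamini-Hochberg adjustment. The SE given is the absolute log2 fold change divided by the square root of the quasi-likelihood F, so it is derived from the test. Exact permutation was not used, because with 2 libraries a side its smallest two-sided p is 0.333. Library levels of lists are log2 CPM with a prior count of 2. Of the 40 genes, 36 have the same span in GENCODE M21; Tnc, Fn1, Mmp14 and Mfap5 do not. Alternatives used other filters and scalings, DESeq2 1.42.0, limma 3.58.1, a replicate block and each library left out. Of these, 2 were added after seeing the data, DESeq2 and no filter, each without control replicate 2. Leaving out 1 library leaves 1 in its group, and the spread then comes from the other groups only. Scripts were tested on simulated data. The 40 genes, the activated and resting lists and the other lists were chosen with earlier results of these data known. Values in all libraries are given for the activated and resting genes and for extremes of each class. Fold changes are given for the 4 largest of each state per comparison and for Postn, Timp1, Dcn and Pdgfra; Tcf21, Gsn and Prelp were added after their values were seen.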

Additional observations from a re-analysis of the deposited data

How the results depend on the processing

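Over the named genes and 18 alternatives, 521 values kept their direction and side of the threshold, 19 passed it in the same direction and 18 changed sign; the cause was not tested. The sign changes were found only where a library was left out. Without control replicate 2 there were 4 by edgeR, 4 by DESeq2 and 4 with no filter. Without control replicate 2 and CFZ_EA replicate 2 there were 5, and without CFZ_EA replicate 1 there was 1. The count of all genes called was 3 for CFZ against control, 2 for CFZ_EA against CFZ and 0 for CFZ_EA against control. It was 138, 55 and 51 by DESeq2, 113, 87 and 74 by DESeq2 without control replicate 2, and 8, 4 and 3 with no filter and without it. Leaving out 1 library at a time gave 0 to 332, 0 to 4 and 0 to 231. Without control replicate 2 and CFZ_EA replicate 2 the first and last were 32 and 1, and fitting only the 2 compared groups gave 0 for CFZ against control. With the replicate number as a block the counts were 2, 2 and 0 and the medians of the tested genes -1.23, 0.43 and -0.88. The labels do not say whether replicate numbers pair samples. Correlations over genes of the replicate differences between groups were -0.066, -0.055 and 0.075. They cannot settle it, since each group gives 1 such difference.

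For CFZ against control, the median of the tested genes ranged from -1.81 to -0.51 on leaving out 1 library, and was -0.51 without both named libraries, -0.51 by DESeq2 and -0.47 with no filter, both without control replicate 2. The activated minus resting difference ranged from -2.19 to 0.016, was 0.016 in those same 3 settings, and -0.48 by limma with a pseudocount of 1. For CFZ_EA against control the median ranged from -1.32 to -0.067 and was -0.17, -0.062 and -0.050 in the same 3 settings, and the difference ranged from -2.25 to -0.083 and was 0.027, -0.083 and -0.083, and -0.99 and -1.05 by limma with pseudocounts of 1 and 0.1. On leaving out libraries Tnc ranged from -5.92 to 0.46 for CFZ against control and from -6.25 to 0.23 for CFZ_EA against control. In the latter Dcn ranged from -0.31 to 0.17, Lox from -3.29 to 0.38 and Cthrc1 from -13.6 to 0.67, and in CFZ_EA against CFZ Cthrc1 ranged from -6.16 to 1.91; Cthrc1 has 0 counts in CFZ_EA replicate 2. By DESeq2 and with no filter, each without control replicate 2, Tnc was 0.46 and 0.50 for CFZ against control, and for CFZ_EA against control Tnc was 0.14 and 0.15, Lox 0.38 and 0.40 and Dcn 0.10 and 0.12.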
